A study of Mus musculus with 33 samples.

Results

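Cone primed and rod primed retinal progenitor cells were compared at day 0, before the later days of induction culture in the same series. The members are the 3 day 0 libraries titled cone primed and the 3 titled rod primed, 6 of the 33 libraries in the series, and they were chosen by title alone. All came from retina of embryonic day 14 mice of the C57BL/6J strain, and the cells are labelled as retinal progenitor cells (RPC) kept in vitro. The cone primed cells had received COCO protein, the rod primed cells taurine and retinoic acid, and the 3 untreated day 0 libraries no treatment. Doses, the length of priming and whether a replicate is a separate litter or culture are not given in the labels. Each p-value rests on the spread between replicate libraries, which may be technical. That spread was estimated over all 33 libraries of the series, later days included, and not over these 6 alone. RNA was total RNA, extracted and made into libraries with Takara kits for picogram and low inputs.

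Retinoic acid is made from vitamin A by retinol and retinaldehyde dehydrogenases, binds nuclear receptors of the RAR family paired with RXR, and is destroyed by the Cyp26 hydroxylases. In many embryonic tissues it induces its own receptor Rarb, its own breakdown enzymes and the 3' Hox genes. Taurine is a sulfur-containing amino acid that is abundant in retina and promotes rod formation in cultured retinal cells. COCO, encoded by Dand5, is a secreted protein that binds and blocks BMP, TGF-beta and Wnt ligands. In the mouse retina at this age progenitors are still dividing, and ganglion cells, cones, horizontal cells, amacrine cells and the first rods are being born.

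The 6 libraries held 7543927 to 11717236 counts in genes, 28.8% to 32.4% of all counted reads. Genes lying over ribosomal RNA sequence took 22.7% to 28.4% of those counts and genes of the mitochondrial genome 7.42% to 11.5%. Levels below are CPM, counts per 1000000 counts of a library whose size was scaled by TMM in edgeR, and are given in the order of replicates 1, 2 and 3. A count of 0 in all 3 libraries of a group allows up to 3 counts, or 0.1 CPM in the cone primed group and 0.11 CPM in the rod primed group, for counting error only. Levels of log2 CPM correlated at 0.983 to 0.988 between replicates and at 0.961 to 0.975 between the groups, across genes. Markers of the labelled cell type were present in every library, with Pax6 at 341 to 563 CPM and Lhx2, a LIM homeobox gene of progenitors, at 35.4 to 96.1 CPM. Neuronal genes were present as well, so the libraries held more than dividing progenitors. In bulk RNA, fewer cells of a type and less RNA per cell cannot be told apart.

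Of 18150 genes tested, 1320 were called, which means that they differed at an adjusted p under 0.05 in edgeR's quasi-likelihood test with Benjamini-Hochberg adjustment. This is 7.27% of the genes tested. The rod primed cells were higher for 866 of them (4.77% of genes tested) and the cone primed cells for 454 (2.5%). The rod primed side also held the larger differences. At 2-fold or more, 433 called genes were higher in rod primed (2.39% of genes tested) and 215 in cone primed cells (1.18%). Among genes called at 8-fold or more, 91 were higher in rod primed and 18 in cone primed cells. Rarb, the retinoic acid receptor beta, had the smallest adjusted p, and Pmepa1, a membrane protein that restrains TGF-beta signalling, was among the 6 smallest. Every log2 fold change below is cone primed minus rod primed, so a negative value means higher in rod primed cells. A value after ± is an approximate standard error (SE), worked back from the fold change and the test statistic. Where the 3 libraries of one group are said not to overlap those of the other, the background is 5361 such genes, 29.5% of those tested. The number of calls depended on single libraries: it was 756 without cone primed replicate 1, 573 without cone primed replicate 3 and 577 without rod primed replicate 3. A fit of the 6 libraries alone called 2084 genes, 1004 higher in rod primed and 1080 in cone primed cells, so the excess of genes higher in rod primed cells was found with all 33 libraries and not with these 6. Some fits called more of all genes. Of the genes it tested, the fit of the 6 libraries called 14.6% and a fit of the 9 day 0 libraries 15.5%. Limma with voom weights called 17.6% and DESeq2 9.48%. Many lists below also gained calls in these fits, but not every list in every fit. Retinoid receptors, carriers and cofactors went from 9 calls to 8 in the fit of the 6 libraries. Genes of Muller glia went from 10 to 9 with voom.

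**Figure D1:**
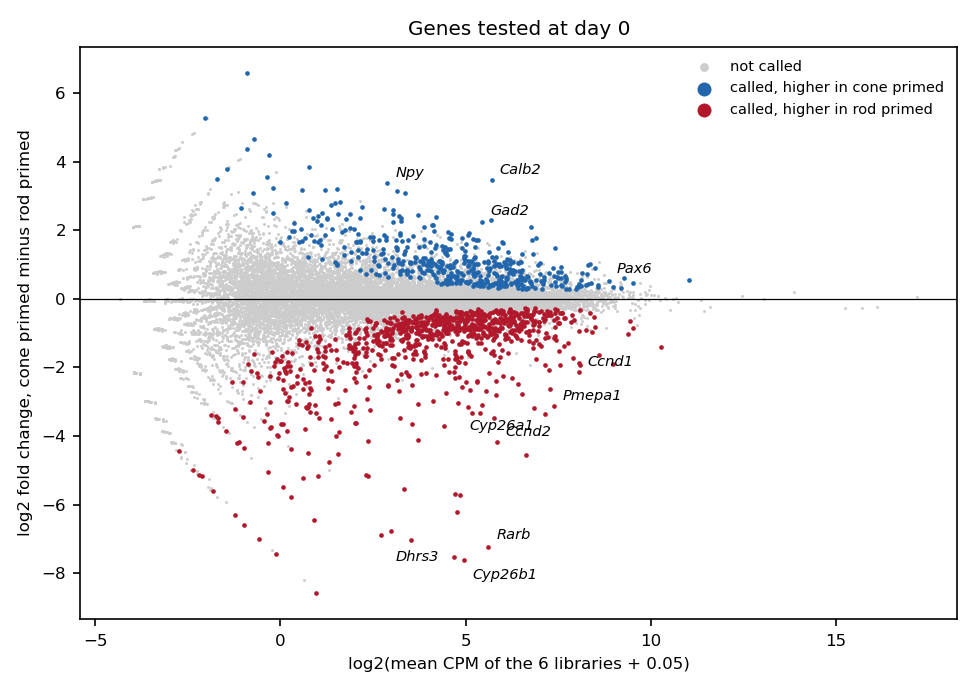
Each point is 1 of 18150 genes tested at day 0, with the log2 of its mean CPM over the 6 libraries plus 0.05 on the x axis and its log2 fold change, cone primed minus rod primed, on the y axis. Coloured points are the 454 genes called higher in cone primed cells (blue) and the 866 called higher in rod primed cells (red); the points below 0 reach further from it than those above, with Rarb at -7.24 and Calb2 at 3.45.

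Untreated cells lay with the cone primed cells. No gene was called between cone primed and untreated libraries by edgeR, where 200 of 18150 genes had an unadjusted p under 0.05. That is fewer than this threshold would give by itself if no gene differed. The test was therefore strict for this pair, and the lack of calls does not show that the groups were alike. The cause was not tested. A fit of the 9 day 0 libraries, RLE factors, a replicate block and leaving out each cone primed library also called 0. Rod primed against untreated libraries gave 1864 calls (10.3% of genes tested), 1217 higher in rod primed (6.71%) and 647 in untreated cells (3.56%). These comparisons share libraries with the main one, so they are given side by side only. Of the 454 genes higher in cone primed cells, the untreated mean lay nearer the cone primed mean for 453 (99.8%), and of the 866 higher in rod primed cells for 856 (98.8%), against 74.9% of all genes tested. The median log2 difference of cone primed from untreated cells was 0.00 over the 454 genes and 0.04 over the 866, while that of rod primed from untreated cells was -0.95 and 1.06. "Higher in cone primed" therefore describes, for nearly all of these genes, a level close to the untreated one.

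Genes of retinoic acid signalling gave the largest differences in the comparison. Among 23 tested receptors, carriers and cofactors of retinoids, 7 were higher in rod primed and 2 in cone primed cells (39.1% called against 7.27% of all genes), with a median log2 fold change of 0.08 against -0.01 over all genes. Among 17 tested enzymes of retinoic acid synthesis and breakdown, 4 were called (23.5%), all higher in rod primed cells, and the median was -0.40. Rarb (chr14:16430842-16575472, build GRCm38) stood at 93.7, 105 and 93.6 CPM in the rod primed libraries. Its level was 0.252, 0.647 and 0.943 CPM in the cone primed and 0.768, 0.867 and 0.204 CPM in the untreated libraries. Every rod primed library was far above all 6 others, and the log2 fold change was -7.24 ± 0.32 (SE, n = 3 per group; edgeR adjusted p = 1.3e-14). The other receptor genes moved far less. Rarg, the gamma receptor, was at 2.85, 3.43 and 3.41 CPM in rod primed against 2.01, 0.97 and 0.838 CPM in cone primed cells (log2 fold change -1.40, edgeR adjusted p = 0.014). Rara, the alpha receptor, went the other way, with 46.9, 49.1 and 44.7 CPM in cone primed, 29.8, 27 and 27.8 CPM in rod primed and 47.1, 42.5 and 48.8 CPM in untreated cells. The groups did not overlap for Rara (log2 fold change 0.74 ± 0.22, edgeR adjusted p = 0.0388), but its call was lost on leaving out any 1 of the 6 libraries (edgeR adjusted p 0.0775 to 0.134). The partner receptors Rxra, Rxrb and Rxrg were not called, with log2 fold changes of 0.17, 0.08 and 0.44. Without cone primed replicate 2 or 3 or rod primed replicate 3 Rarg lost its call (edgeR adjusted p 0.0603 to 0.0896).

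Uptake, transport and cofactors of retinoids were read next. Stra6, the membrane receptor that takes up retinol, was higher in rod primed cells by a log2 fold change of -1.71 ± 0.50 (edgeR adjusted p = 0.0358). That call was lost without cone primed replicate 1 or 3 or rod primed replicate 1 or 3 (edgeR adjusted p 0.0923 to 0.177). Crabp2, which carries retinoic acid to the nucleus, was at 2.17, 1.31 and 5.3 CPM in rod primed and 0.252, 0.889 and 1.26 CPM in cone primed cells and was not called (edgeR adjusted p = 0.0591). Crabp1, the other cellular carrier, was not called either (log2 fold change 0.76, edgeR adjusted p = 0.341). Smaller differences were called for the coactivator Ncoa3 (-0.56) and the corepressor Nrip1 (-0.41), both higher in rod primed cells, and for the orphan receptor Rora (0.77), higher in cone primed cells. Ncoa3 kept its call without any 1 library. Nrip1 lost it without cone primed replicate 1 or 2 or rod primed replicate 1 or 3 (edgeR adjusted p 0.0686 to 0.111), and Rora without cone primed replicate 1 or 3 or rod primed replicate 2 or 3 (0.0642 to 0.193).

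The breakdown side of the pathway moved and the synthesis side did not pass the test. Cyp26b1, a retinoic acid hydroxylase, was at 59.3, 41.8 and 83.2 CPM in rod primed cells against 0.252, 0.323 and 0.314 CPM in cone primed cells, 1779 counts against 9. No rod primed library came near the other groups, and the log2 fold change was -7.63 ± 0.93 (edgeR adjusted p = 3.22e-06). Dhrs3, which turns retinaldehyde back into retinol, was at 53.6, 39.9 and 59.3 CPM in rod primed against 0.126, 0.243 and 0.419 CPM in cone primed cells (log2 fold change -7.52 ± 0.50, edgeR adjusted p = 6.9e-11). Cyp26a1 was already present without priming, at 16.1, 14.6 and 37.3 CPM in untreated and 14.2, 36.5 and 23.6 CPM in cone primed cells, and stood at 230, 251 and 285 CPM in rod primed cells. That difference was 10.2-fold (log2 fold change -3.35 ± 0.39, edgeR adjusted p = 1.43e-06). Lrat, which stores retinol as esters, had 0 counts in the cone primed libraries and 113 in the rod primed ones, at 3.26, 2.12 and 6.11 CPM, at least 39.6-fold higher in rod primed cells against a floor of 3 counts over the cone primed group (edgeR adjusted p = 0.000884). All 4 kept their calls without any 1 library. The third hydroxylase, Cyp26c1, was at 0.202 to 1.26 CPM in rod primed and 0.755 to 2.51 CPM in cone primed cells and was not called. Of the retinaldehyde dehydrogenases, Aldh1a1 was at 35.8, 11.1 and 27.3 CPM in rod primed and 19, 25.5 and 8.7 CPM in cone primed cells, which overlapped (log2 fold change -0.46, edgeR adjusted p = 0.721). Aldh1a3 was at 0.271, 2.02 and 2.51 CPM in rod primed and 1.13, 4.12 and 2.51 CPM in cone primed cells (log2 fold change 0.67, edgeR adjusted p = 0.618). Rdh10, the main retinol dehydrogenase of the embryo, had a log2 fold change of -0.40 (edgeR adjusted p = 0.22).

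**Figure D2:**
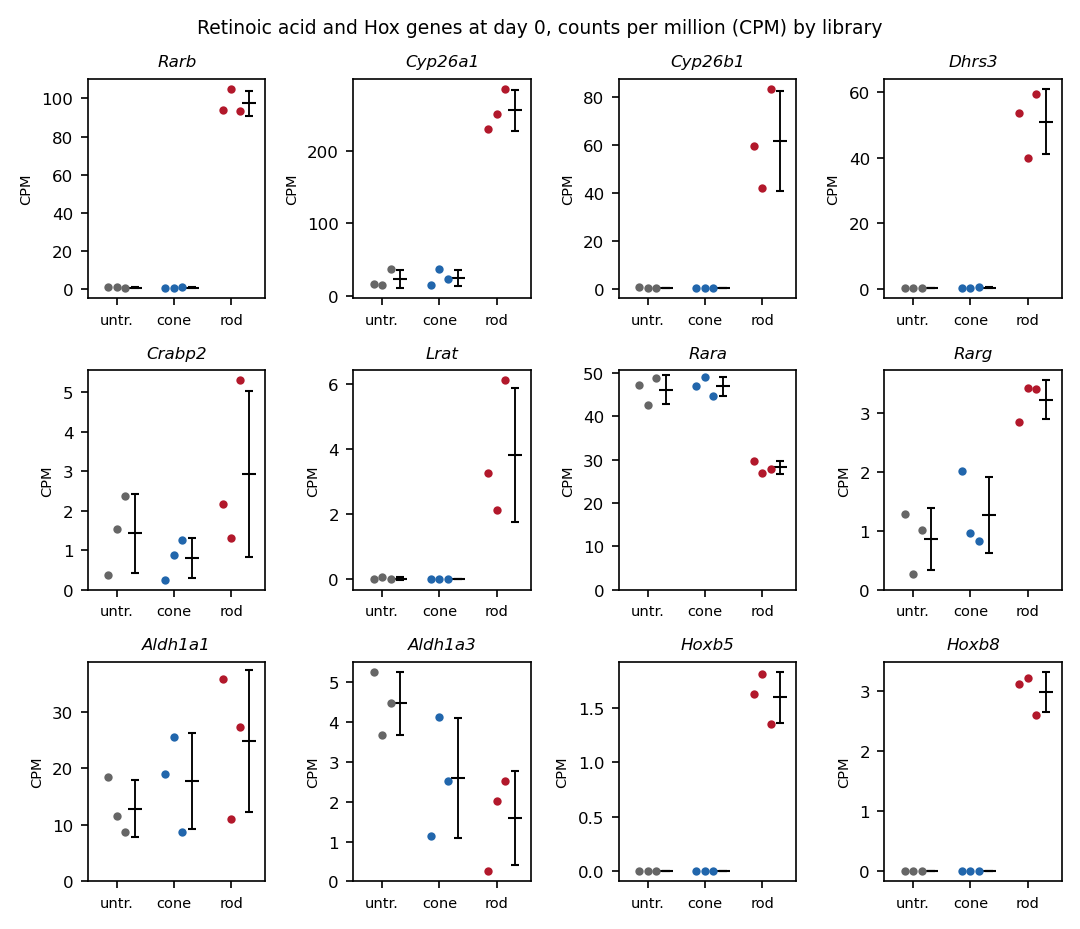
Points are CPM in each of the 3 untreated (grey), 3 cone primed (blue) and 3 rod primed (red) libraries, and the black bar beside each group is its mean with SD; each panel has its own axis from 0. Rarb, Cyp26a1, Cyp26b1, Dhrs3, Lrat, Hoxb5 and Hoxb8 are high in all 3 rod primed libraries alone, Rara is lower there, Crabp2 was not called, and Aldh1a1 and Aldh1a3 overlap between the primed groups.

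Hox genes, which set position along the body axis and are not normally active in retina, were detected in rod primed libraries. Of 39 Hox genes, 26 had 0 counts in all 9 day 0 libraries. A run of 6 neighbours on chromosome 11, Hoxb3 to Hoxb8, had 0 counts in every cone primed and untreated library and counts in every rod primed one. How many of all genes share this pattern was not counted. Hoxb8 was at 3.12, 3.22 and 2.6 CPM in rod primed cells, at least 29.4-fold above the floor of the cone primed group, and Hoxb5 was at 1.63, 1.81 and 1.35 CPM, at least 15.8-fold above it. Hoxb3 and Hoxb4 were at least 7-fold, Hoxb7 at least 6.65-fold and Hoxb6 at least 3.15-fold above it. Hoxb5 and Hoxb8 were the only Hox genes with enough counts to be tested, and neither was called (edgeR adjusted p = 0.0763 and 0.0707). Both were called in 5 alternatives, among them the fit of the 6 libraries (edgeR adjusted p = 0.00324 for Hoxb5 and 0.0013 for Hoxb8) and no filter on low counts (0.043 and 0.0206), and over all their alternatives but DESeq2, which gave none, the adjusted p was 0.000177 to 0.905 and 2.67e-05 to 0.905. Summed over the family, the level was 6.28 to 8.36 CPM in rod primed, 0 to 0.21 CPM in cone primed and 0.136 to 0.4 CPM in untreated libraries, so the rod primed libraries lay above the other 6. The sources used here do not say whether reads were counted by strand, so antisense transcripts of the cluster cannot be told apart from these genes.

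Other genes listed as retinoic acid targets in embryos were mixed. Of 22 tested, 3 were higher in rod primed and 2 in cone primed cells, with a median log2 fold change of -0.10. The share called was 22.7%, against 7.27% of all genes. Nr2f1, an orphan nuclear receptor, was at 33.1, 33 and 40.8 CPM in rod primed and 18.9, 19 and 19 CPM in cone primed cells (log2 fold change -0.91 ± 0.20, edgeR adjusted p = 0.00551). Nedd9, an adhesion scaffold, was at 57.2, 59.6 and 80.8 CPM against 21.9, 40 and 30.5 CPM (-1.09 ± 0.22, edgeR adjusted p = 0.00219). Hic1, a transcriptional repressor, had 3 counts in the cone primed group and 49 in the rod primed group, a ratio of 17.2 with a counting interval of 5.53 to 86. A pair of targets known from other tissues were lower in rod primed cells, Tgm2, a transglutaminase (1.33, edgeR adjusted p = 0.0185), and Gbx2, a homeobox gene (2.34, edgeR adjusted p = 0.0196). The calls for Hic1, Tgm2 and Gbx2 each ended on leaving out single libraries. Hic1 lost its call without any cone primed replicate or rod primed replicate 1 or 3 (edgeR adjusted p 0.0758 to 0.278), Tgm2 without cone primed replicate 1 or rod primed replicate 2 or 3 (0.0708 to 0.113), and Gbx2 without cone primed replicate 1 or 3 or rod primed replicate 2 or 3 (0.0692 to 0.114).

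Promoters were searched for the direct repeats that retinoic acid receptors usually bind. RefSeq promoters on GRCm38.p6, from 250 bases before to 50 bases after the start site, were matched by symbol for 11745 of 18146 gene symbols tested. Half-sites AGTTCA or AGGTCA repeated in the same direction and spaced by 5 bases, on either strand, lay in 5 promoters (0.0426%), of which 2 belonged to the 656 matched genes higher in rod primed cells (0.305%) and 0 to the 328 matched genes higher in cone primed cells. With GGTTCA and GGGTCA also allowed, a choice made after seeing the data, 9 promoters held a repeat (0.0766%), of which 4 belonged to genes higher in rod primed cells (0.61%) and 0 to genes higher in cone primed cells. These 4 are shown because they are the called genes whose promoters hold the repeat, with the 2 half-sites in capitals and each read 5′ to 3′ on the strand of its gene. Rarb is chr14:16575507-16575535 (minus strand), where the repeat also lies in an exon of longer Rarb transcripts, and Cyp26a1 is chr19:37697716-37697797 (plus strand). Gm14133 is chr2:149798900-149799036 (minus strand) and Syndig1 is chr2:149830610-149830638 (plus strand), over an exon of C530025M09Rik on the other strand.
Rarb: gggaagGGTTCAccgaaAGTTCActcgca
Cyp26a1: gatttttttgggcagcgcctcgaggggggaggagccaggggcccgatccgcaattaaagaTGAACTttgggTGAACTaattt
Gm14133: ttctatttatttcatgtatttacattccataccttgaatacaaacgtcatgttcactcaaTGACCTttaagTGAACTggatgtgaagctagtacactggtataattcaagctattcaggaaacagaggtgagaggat
Syndig1: catcccGGGTCAcccctAGTTCAgcccgc
In Cyp26a1 and Gm14133 the repeat reads on the opposite strand, so its half-sites appear reversed and complemented. A match is a description of letters and shows no binding. The 5 other genes with such a repeat, Blvrb, Cfap45, Ppbp, Prokr2 and Tnfsf13b, were not called. Repeats spaced by 1 or 2 bases were in 0 promoters of called genes under either set of half-sites.

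Gm14133, a long noncoding RNA, and Syndig1, a synapse protein gene, are neighbours on chromosome 2 and were picked out after their values and promoters had been seen. Gm14133 was at 10.4, 8.36 and 10.1 CPM in rod primed and 0.126, 0.485 and 0.105 CPM in cone primed cells (log2 fold change -5.15 ± 0.40, edgeR adjusted p = 1.65e-09). Syndig1 was at 3.26, 1.71 and 4.04 CPM against 0.252, 0.566 and 0.524 CPM (-2.67 ± 0.48, edgeR adjusted p = 0.000598). For both genes all rod primed libraries lay above all cone primed ones.

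The largest differences on the rod primed side, among genes above a set level and without overlap between libraries, included Cyp26b1, Dhrs3 and Rarb and 8 genes of varied function. That level was a mean over the 6 libraries, which a gene could reach through the rod primed libraries alone. Csn3, a casein, was at 20.2, 18.4 and 29.8 CPM in rod primed and 0, 0.243 and 0.21 CPM in cone primed cells (log2 fold change -7.02). Wfdc1, a secreted protease inhibitor, had 3 counts in the cone primed and 381 in the rod primed group, a ratio of 133 with a counting interval of 45.3 to 650. Tnfrsf1b, a receptor for tumour necrosis factor, was at 14.5, 7.46 and 24.9 CPM against 0, 0.323 and 0 CPM (-6.78). All of these were at or near 0 outside the rod primed libraries. Pdlim3, a cytoskeletal adaptor, was at 54, 51.1 and 56.5 CPM against 1.01, 0.566 and 0.629 CPM (-6.23 ± 0.52, edgeR adjusted p = 5.71e-09). Atoh8, a bHLH transcription factor, was at 47.1, 57.5 and 65.6 CPM against 0.629, 1.46 and 0.943 CPM (-5.73 ± 0.35, edgeR adjusted p = 9.95e-12). Hkdc1, a hexokinase, was at 80.7, 42.5 and 31.9 CPM against 1.76, 0.889 and 0.419 CPM (-5.70 ± 0.48, edgeR adjusted p = 6.29e-09). The citrate transporter gene Slc13a5 (-5.18) and the interferon-inducible gene Oasl2 (-4.76) were also higher in rod primed cells. All 11 kept their calls without any 1 library.

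Prelp, a matrix proteoglycan, was among the 6 smallest adjusted p-values with a smaller fold. It was at 239, 200 and 188 CPM in rod primed and 26.6, 23.5 and 18.5 CPM in cone primed cells (-3.19 ± 0.23, edgeR adjusted p = 3.11e-10). Replicates of each group lay close together. In the thyroid hormone pathway 3 of 10 tested genes were higher in rod primed and 1 in cone primed cells (40% called against 7.27% of all genes, median -0.90). They included Hr, a corepressor induced by thyroid hormone (-1.34), Ttr, a carrier of thyroid hormone and of retinol binding protein (3 against 50 counts, a ratio of 17.5 with a counting interval of 5.65 to 87.7), and the receptor gene Thra (0.66), higher in cone primed cells. Hr lost its call without cone primed replicate 1 or 2 or rod primed replicate 2 or 3 (edgeR adjusted p 0.0631 to 0.147), Ttr without rod primed replicate 3 (0.0596) and Thra without all but cone primed replicate 2 (0.0526 to 0.136). Thrb, the receptor needed for red and green cone opsin, was not called (-0.45, edgeR adjusted p = 0.605).

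The pathways that COCO blocks were read next, from their ligands to their targets. Of 26 tested BMP pathway genes, 5 were higher in rod primed and 0 in cone primed cells (19.2% called, median -0.17). Of all genes tested 7.27% were called, 4.77% higher in rod primed and 2.5% in cone primed cells. Bmp2, a ligand, was at 5.7, 6.95 and 14.1 CPM in rod primed, 0.755, 1.7 and 0.943 CPM in cone primed and 0.512, 1.27 and 1.43 CPM in untreated cells (log2 fold change -2.92 ± 0.42, edgeR adjusted p = 3.46e-05). The inhibitory Smad gene Smad6 was at 2.58, 1.31 and 4.76 CPM against 0.252, 0.162 and 0.21 CPM in cone primed cells (-3.79 ± 0.45, edgeR adjusted p = 2.45e-06). Id2, an inhibitor of bHLH factors that BMP signalling induces, was at 29.8, 23.8 and 47.9 CPM against 6.8, 12.5 and 6.81 CPM (-1.94 ± 0.27, edgeR adjusted p = 3.01e-05). For these 3 genes the cone primed libraries lay among or near the untreated ones, and all rod primed libraries above. Id1 and Id3, the most direct BMP targets, were not called (-0.73 and -0.21), nor were the ligand Bmp7 (0.53) or Dand5, the mouse gene for COCO, at 3.64 to 6.8 CPM in cone primed and 3.32 to 6.78 CPM in rod primed cells. The receptor gene Bmpr1a (-0.37) and Tob1 (-0.38), an antiproliferative inhibitor of Smad proteins, were called by small margins. Bmpr1a lost its call without cone primed replicate 2 or 3 or rod primed replicate 1 or 3 (edgeR adjusted p 0.0586 to 0.215), and Tob1 without any 1 of the 6 libraries (0.0671 to 0.13).

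TGF-beta genes gave 4 calls of 23 tested, all higher in rod primed cells (17.4% called against 7.27% of all genes, median -0.24). Pmepa1 was at 313, 315 and 274 CPM in rod primed, 35.9, 34.2 and 33.5 CPM in cone primed and 45.2, 33.5 and 27.4 CPM in untreated cells. The rod primed libraries were about alike and all far above the rest (log2 fold change -3.12 ± 0.17, edgeR adjusted p = 7.74e-13). Smad3, a signal transducer, was at 48.8, 59.4 and 72.5 CPM against 25, 29.8 and 19.3 CPM (-1.28 ± 0.25, edgeR adjusted p = 0.00125). Skil, a repressor of Smad proteins, was higher in rod primed cells as well (-0.79), and so was Ltbp1, which holds latent TGF-beta in the matrix (-1.34), whose call ended without cone primed replicate 3 or rod primed replicate 3 (edgeR adjusted p 0.0754 and 0.139). The ligand Tgfb2 and the receptor Tgfbr1 were not called (-0.24 and -0.17), and Nodal, Lefty1 and Lefty2 had 0 counts in all 9 day 0 libraries.

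Of 28 tested Wnt pathway genes, 4 were higher in rod primed and 1 in cone primed cells (median -0.37). The share called was 17.9%, against 7.27% of all genes. Dkk3, a secreted glycoprotein of the Dickkopf family, was at 494, 510 and 770 CPM in rod primed and 181, 239 and 154 CPM in cone primed cells (log2 fold change -1.63 ± 0.18, edgeR adjusted p = 1.04e-06). The transcription factor genes of the pathway went in different directions. Lef1 was at 43.2, 30.6 and 37.2 CPM in cone primed and 15.1, 8.77 and 9.88 CPM in rod primed cells (1.73 ± 0.40, edgeR adjusted p = 0.00722), while Tcf7 (-2.05) and Tcf7l1 (-0.91) were higher in rod primed cells, as was the receptor Fzd7 (-0.99). The general target Axin2 was not called (-0.45, edgeR adjusted p = 0.181). Lef1 lost its call without rod primed replicate 3 (edgeR adjusted p 0.0528), Tcf7l1 without cone or rod primed replicate 3 (0.0538 and 0.0799), Fzd7 without cone primed replicate 1 or 3 or rod primed replicate 3 (0.119 to 0.411), and Tcf7 without all but rod primed replicate 2 (0.0612 to 0.378).

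Notch targets were split by gene. Of 19 pathway genes tested, 2 were higher in each group (21.1% called against 7.27% of all genes, median 0.03). The fit of the 6 libraries called 10, 6 of them higher in cone primed cells, voom 10 and the fit of the 9 libraries 8. Hes1, a repressor of neuronal differentiation, was at 32.7, 24.9 and 39.1 CPM in rod primed and 10.1, 11.9 and 6.39 CPM in cone primed cells (log2 fold change -1.76 ± 0.22, edgeR adjusted p = 5.77e-06). Hes5, its relative and also a Notch target, was at 16.5, 12.4 and 18.9 CPM in rod primed and 46.1, 54.2 and 43.8 CPM in cone primed cells (1.59 ± 0.33, edgeR adjusted p = 0.0029). The groups did not overlap for either gene, and the 2 differences had opposite signs. Nrarp, a feedback inhibitor of Notch, was higher in cone primed cells (0.81, edgeR adjusted p = 0.0086). The receptor Notch3 was higher in rod primed cells (-1.19), a call lost without cone or rod primed replicate 3 (edgeR adjusted p 0.153 and 0.199), and Notch1 and the ligand Dll1 were not called (-0.08 and 0.42).

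Among FGF pathway genes 4 of 20 tested were called, all higher in rod primed cells (20% against 7.27% of all genes, median -0.24). Fgf1, a growth factor, was at 4.2, 1.41 and 10.9 CPM in rod primed and 0.755, 0.404 and 0 CPM in cone primed cells (log2 fold change -3.89 ± 0.69, edgeR adjusted p = 0.000515). The target Etv1 (-0.96) and the feedback inhibitors Spred2 (-0.85) and Spry1 (-0.84) followed with smaller differences. Spry1 lost its call without all but cone primed replicate 2 (edgeR adjusted p 0.0505 to 0.12). In the Sonic hedgehog pathway 1 of 12 tested genes was called, 8.33% and thus near the 7.27% of all genes. It was the coreceptor Cdon, at 256, 240 and 324 CPM in rod primed and 101, 89.3 and 94.8 CPM in cone primed cells (-1.53 ± 0.16, edgeR adjusted p = 3.01e-07). Genes that pattern the dorsal and ventral retina gave 3 calls of 18, all higher in rod primed cells (16.7% against 7.27% of all genes, median -0.74). The fit of the 6 libraries called 7 of 15 it tested, that of the 9 libraries 8 of 16 and voom 7 of 18. Efnb2, a dorsal ephrin, was at 419, 406 and 469 CPM against 112, 143 and 82.7 CPM (-1.93 ± 0.25, edgeR adjusted p = 6.71e-06). Tbx2, a dorsal T-box factor, was at 160, 169 and 162 CPM against 68.6, 53 and 60.4 CPM (-1.43 ± 0.26, edgeR adjusted p = 0.000597). Ephb2, a ventral Eph receptor, was higher in rod primed cells too (-0.93, edgeR adjusted p = 0.0052), so the genes called did not all belong to 1 side of the eye. Tbx5 and Vax2, the dorsal and ventral transcription factors, were not called (0.07 and -1.15).

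**Figure D3:**
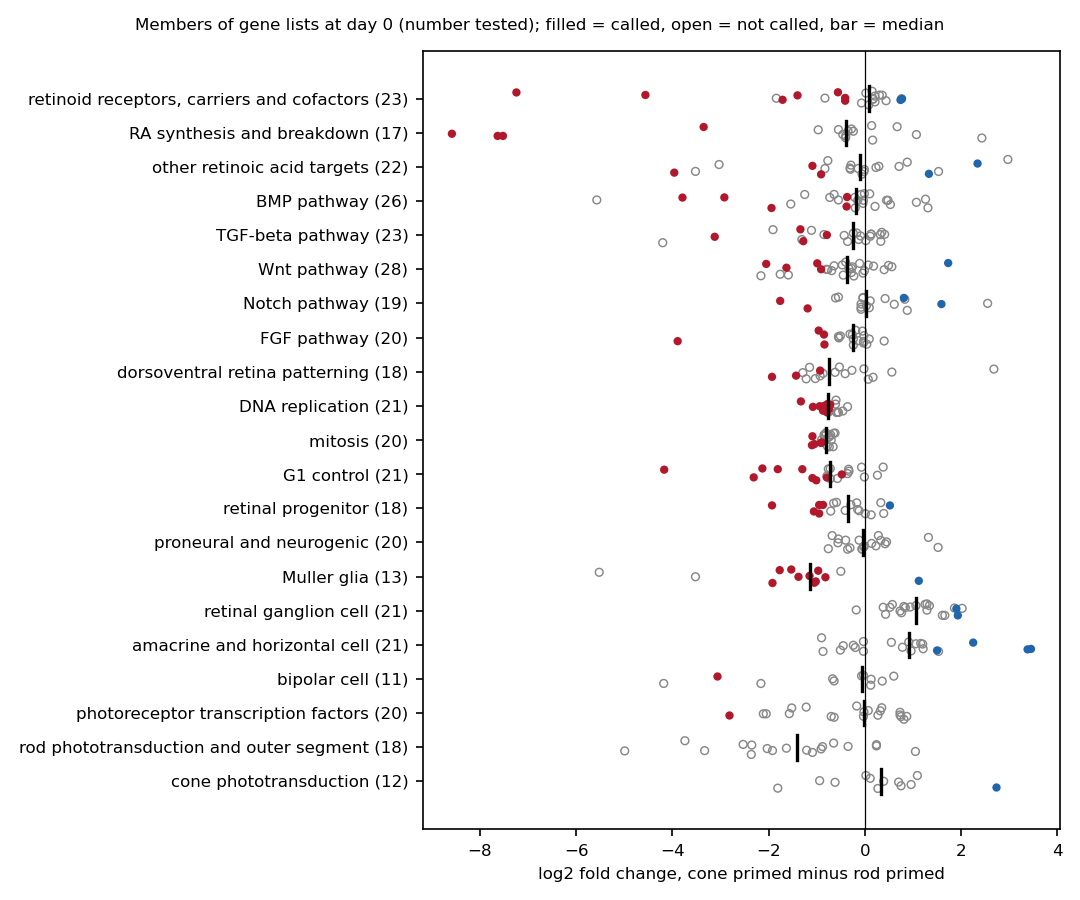
Each point is 1 tested gene of a list, placed by its log2 fold change, cone primed minus rod primed; filled points were called, open ones were not, the bar is the list's median and the number tested is in brackets. All points for DNA replication (21) and mitosis (20) lie left of 0, all but 1 of the ganglion cell points (20 of 21) lie right of it, and the furthest points to the left belong to the 2 retinoic acid lists.

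The cell cycle genes that were called were all higher in rod primed cells. All 21 tested DNA replication genes had a log2 fold change below 0 (median -0.76) and 11 were called (52.4% against 7.27% of all genes). All 20 mitosis genes lay below 0 (median -0.80) and 5 were called (25%). Among 21 genes of G1 control, 9 were called, all higher in rod primed cells (42.9%, median -0.72). The fit of the 6 libraries called 13 replication, 14 mitosis and 10 G1 genes, and voom called 21, 20 and 14. The D cyclins drive entry into the cycle. Ccnd1 was at 416, 354 and 528 CPM in rod primed, 91.9, 130 and 75.6 CPM in cone primed and 114, 81 and 85.9 CPM in untreated cells (log2 fold change -2.13 ± 0.24, edgeR adjusted p = 9.49e-07). Ccnd2 was at 75.4, 86.6 and 163 CPM in rod primed, 5.91, 9.46 and 2.41 CPM in cone primed and 6.27, 2.2 and 6.45 CPM in untreated cells (-4.17 ± 0.39, edgeR adjusted p = 4.27e-08). No library of either cyclin overlapped between the primed groups. Inhibitors of the cycle were higher in rod primed cells too, led by Cdkn1c, at 77.2, 79.5 and 222 CPM against 21.6, 29.2 and 25.5 CPM (-2.31 ± 0.34, edgeR adjusted p = 5.01e-05). E2f1, which switches on replication genes (-1.30), and Cdk2 (-1.09) kept their calls without any 1 library, as did both cyclins and Cdkn1c.

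The replication and mitosis calls rested on small differences. Rrm2, a subunit of ribonucleotide reductase, was at 72.8, 85.6 and 99.4 CPM in rod primed and 26.1, 50.6 and 25.1 CPM in cone primed cells (log2 fold change -1.33 ± 0.31, edgeR adjusted p = 0.00721). Pcna, the sliding clamp of DNA polymerase, was at 86.1, 85 and 105 CPM against 47.7, 67.2 and 44.5 CPM (-0.79 ± 0.18, edgeR adjusted p = 0.00667). Cone primed replicate 2 was the highest of its group for both genes. Other replication calls included Cdc45, Cdc6, Cdt1, Mcm3, Pola1, Pole, Rfc3 and Rrm1, with log2 fold changes from -1.08 (Cdt1) to -0.72 (Pola1), and the mitosis calls were Aurkb, Bub1, Cdk1, Kif11 and Ttk, from -1.10 (Ttk) to -0.90 (Bub1). Mki67, the proliferation marker, was at 940, 896 and 1131 CPM in rod primed and 519, 765 and 446 CPM in cone primed cells, without overlap and not called (-0.78, edgeR adjusted p = 0.112). On leaving out cone primed replicate 1, cone primed replicate 3 or rod primed replicate 3, the calls fell to 2, 1 and 1 for DNA replication and to 0 each time for mitosis. Without cone primed replicate 2 they were 14 and 10. The median of each list stayed below 0 in all 6 of these fits, from -0.91 to -0.59 for replication and from -1.05 to -0.65 for mitosis. The remaining G1 calls were Cdkn1b (-0.48), Cdkn2a (-1.81), Cdkn2c (-1.01) and Rbl1 (-0.79), each lost without 3 to 5 of the libraries in turn (edgeR adjusted p 0.0501 to 0.196).

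**Figure D4:**
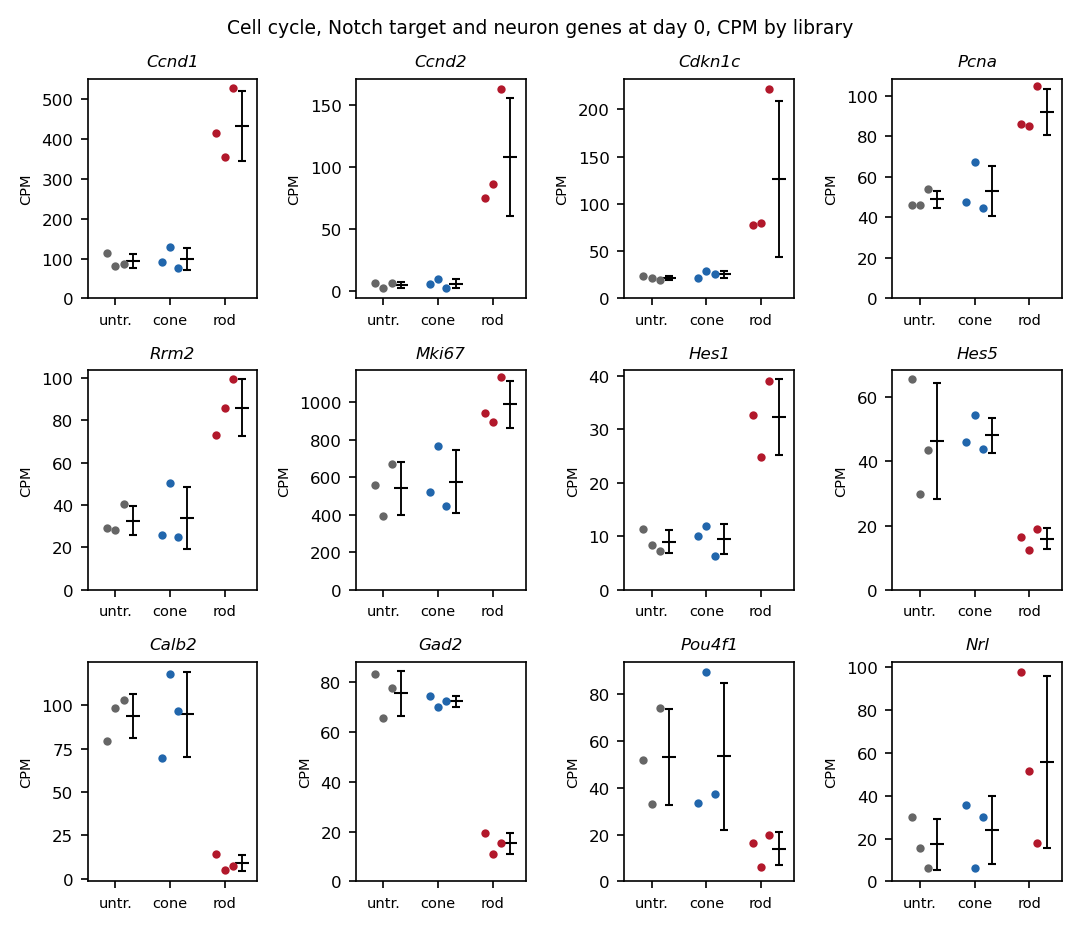
Points are CPM in each untreated (grey), cone primed (blue) and rod primed (red) library, with mean and SD beside each group and a separate axis from 0 for each gene. Ccnd1, Ccnd2, Cdkn1c, Pcna, Rrm2 and Hes1 are higher in all 3 rod primed libraries and Hes5, Calb2, Gad2 and Pou4f1 lower, while Nrl overlaps between the groups; the Mki67 groups do not overlap and the gene was not called.

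Progenitor genes were uneven. Of 18 tested, 5 were higher in rod primed and 1 in cone primed cells (33.3% called against 7.27% of all genes, median -0.35). Lhx2, a LIM homeobox gene of progenitors and glia, was at 89.5, 83.6 and 96.1 CPM in rod primed and 45.3, 48.1 and 35.4 CPM in cone primed cells (log2 fold change -1.06 ± 0.19, edgeR adjusted p = 0.000508). Sfrp2, a secreted Wnt modulator of progenitors, was at 296, 274 and 316 CPM against 67.5, 129 and 35.9 CPM (-1.93 ± 0.34, edgeR adjusted p = 0.000504). Zic5, a zinc finger gene of progenitors (-0.95), held its call without any 1 library. Pax6, which progenitors share with amacrine and ganglion cells, went the other way, with 563, 532 and 547 CPM in cone primed and 341, 368 and 434 CPM in rod primed cells (0.52 ± 0.14, edgeR adjusted p = 0.0208). Pax6 lost its call without cone primed replicate 1 or 3 or rod primed replicate 1 or 2 (edgeR adjusted p 0.0749 to 0.108), and Nes (-0.95) and Zic1 (-0.87) without cone primed replicate 1 or 3 or rod primed replicate 3 (0.134 to 0.395). Of 20 proneural and neurogenic genes tested, among them Neurog2 and Atoh7, none was called by edgeR and 2 had an unadjusted p under 0.05 (median -0.04). DESeq2 called 0, the fit of the 9 libraries 1 and voom 3.

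Genes of Muller glia, the radial glia of the retina that share much of their expression with late progenitors, were higher in rod primed cells. Of 13 tested, 9 were called higher there and 1 in cone primed cells (76.9% called against 7.27% of all genes, median -1.15). Their summed level was 2131 to 2302 CPM in rod primed, 1019 to 1264 CPM in cone primed and 904 to 1153 CPM in untreated libraries. Cp, the copper-binding ferroxidase ceruloplasmin, was at 207, 221 and 239 CPM in rod primed and 63.7, 59.2 and 53 CPM in cone primed cells (log2 fold change -1.92 ± 0.22, edgeR adjusted p = 1.49e-06). Slc1a3, a glutamate transporter, was at 176, 187 and 216 CPM against 89.2, 94.7 and 76.7 CPM (-1.15 ± 0.21, edgeR adjusted p = 0.000635). Both kept their calls without any 1 library and did not overlap between groups. Rlbp1, the retinaldehyde binding protein of glia, was at 78.1, 39.3 and 32.5 CPM against 22.8, 11.2 and 18.2 CPM (-1.53 ± 0.36, edgeR adjusted p = 0.00811), and lost its call without rod primed replicate 1 (edgeR adjusted p 0.0842). Also higher in rod primed cells were Apoe, Clu, Gpr37, Kcnj10, Sox8 and Vim, with log2 fold changes from -1.77 (Kcnj10) to -0.82 (Sox8). Each of these 6 lost its call without 2 or more of the libraries in turn (edgeR adjusted p 0.0519 to 0.288). Car2, a carbonic anhydrase also made by other retinal cells, was higher in cone primed cells, at 105, 92.2 and 102 CPM against 53.4, 49.5 and 34.9 CPM (1.12, edgeR adjusted p = 0.0118), except without rod primed replicate 3 (0.0953). Glul, the glial glutamine synthetase, was not called (-0.50, edgeR adjusted p = 0.101).

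Some genes of inner retinal neurons were higher in cone primed cells. Calb2, the calcium binding protein calretinin of amacrine and ganglion cells, was at 69.3, 118 and 96.9 CPM in cone primed, 79.1, 98.4 and 103 CPM in untreated and 14.1, 5.14 and 7.27 CPM in rod primed cells. It was the largest named difference on this side, with all rod primed libraries below all others (log2 fold change 3.45 ± 0.57, edgeR adjusted p = 0.000266). Of 21 amacrine and horizontal cell genes tested, 4 were called, all higher in cone primed cells (19% against 7.27% of all genes). Of the 21, 8 had a log2 fold change below 0 (median 0.91). The fits of the 6 and of the 9 libraries each called 9, 8 of them higher in cone primed cells, and voom 10. Gad2, which makes the transmitter GABA, was at 74.5, 70.1 and 72.3 CPM in cone primed and 19.4, 11.1 and 15.4 CPM in rod primed cells (2.25 ± 0.47, edgeR adjusted p = 0.00327). Npy, a neuropeptide, was at 12.7, 13.4 and 13.9 CPM against 2.85, 0.705 and 0.539 CPM (3.38 ± 0.81, edgeR adjusted p = 0.01), and Nr4a2, a nuclear receptor of amacrine subtypes, was at 15.2, 20.9 and 22.7 CPM against 6.65, 7.25 and 6.91 CPM (edgeR adjusted p = 0.000522). The factor genes Tfap2b and Ptf1a, which define amacrine cells, and Lhx1 and Prox1 of horizontal cells were not called (0.78, -0.20, -0.87 and -0.45). Npy lost its call without rod primed replicate 2 or 3 (edgeR adjusted p 0.0593 and 0.0817), and Calb2, Gad2 and Nr4a2 kept theirs without any 1 library.

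Ganglion cell genes varied widely between libraries. Of 21 tested, 20 had a log2 fold change above 0 (median 1.06). Only Ebf1 and Pou4f1, both transcription factors of ganglion cells, were called (9.52%, against 2.5% of all genes called higher in cone primed cells). The fit of the 6 libraries called 6, that of the 9 libraries 7 and voom 12, all higher in cone primed cells. Pou4f1 was at 33.6, 89.7 and 37.3 CPM in cone primed and 16.3, 6.15 and 19.8 CPM in rod primed cells (log2 fold change 1.93 ± 0.48, edgeR adjusted p = 0.0124), and Ebf1 at 33.9, 56.6 and 24.3 CPM against 8.68, 4.53 and 17.2 CPM (3.74-fold, edgeR adjusted p = 0.00409). Cone primed replicate 2 was the highest library for both and for most of the list, whose summed level was 869 to 1859 CPM in cone primed, 484 to 882 CPM in rod primed and 953 to 1461 CPM in untreated libraries. Pou4f1 lost its call without that library or without rod primed replicate 2 (edgeR adjusted p 0.0791 and 0.11), and Ebf1 kept it without any 1 library. Isl1 and Stmn2, the first also found in amacrine and bipolar cells and the second in most young neurons, were not called (1.29 and 1.06). Whether ganglion and amacrine genes differ through the number of such cells was not tested.

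The other large differences on the cone primed side mixed neuronal and muscle-type genes. Fam69c, a kinase-like protein (log2 fold change 3.20), Edaradd, an adaptor of the ectodysplasin receptor (3.15), Podn, a small matrix proteoglycan (3.08), Ryr1, a calcium release channel (2.67), and Gpr26, an orphan receptor of brain (2.63), kept their calls without any 1 library. Podn was at 17.4, 14.9 and 22.4 CPM in cone primed, 14.2, 29.2 and 27.2 CPM in untreated and 2.03, 2.62 and 1.8 CPM in rod primed cells (edgeR adjusted p = 4.84e-05). Edaradd was at 8.31, 25.4 and 13.9 CPM against 0.678, 1.71 and 2.78 CPM in rod primed cells (edgeR adjusted p = 3.22e-05). Neither gene overlapped between the primed groups. Fam19a4, a secreted neuronal factor (3.17), Syndig1l, a synapse protein (2.82), Cnga3, the cone cyclic nucleotide channel (2.73), Chrnb3, a nicotinic receptor subunit (2.59), and Tnnt1, a troponin (2.49), lost theirs without 2 to 5 of the libraries in turn (edgeR adjusted p 0.0507 to 0.197).

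Few photoreceptor genes were called at day 0, and more in other fits. Among 20 tested transcription factor genes of photoreceptors 1 was called (5% against 7.27% of all genes), Samd7, a Polycomb partner of rods, at 109, 121 and 65.8 CPM in rod primed and 16.1, 3.72 and 22.5 CPM in cone primed cells. Samd7 did not overlap between groups (log2 fold change -2.82 ± 0.86, edgeR adjusted p = 0.0433), but its call was lost without any 1 of the 6 libraries (edgeR adjusted p 0.0702 to 0.146) and in DESeq2 (DESeq2 adjusted p = 0.0693). The fit of the 6 libraries called 7 of 17 photoreceptor transcription factor genes, 2 higher in rod primed and 5 in cone primed cells, that of the 9 libraries 6 of 17, voom 9 of 20 and DESeq2 0 of 20. Crx and Otx2, which both rods and cones need, were at 340 to 541 CPM and 158 to 316 CPM in cone primed and at 301 to 530 CPM and 169 to 371 CPM in rod primed cells, overlapping (0.07 and -0.17). Nrl, which commits cells to the rod fate, was at 97.8, 51.4 and 17.8 CPM in rod primed and 35.9, 6.14 and 29.9 CPM in cone primed cells. Its target Nr2e3, a repressor of cone genes, was at 80.6, 14.8 and 6.02 CPM against 25.5, 0.243 and 10.2 CPM. Both overlapped between the groups and neither was called (-1.22 and -1.52, edgeR adjusted p = 0.547 and 0.582). Replicate 1 was the highest of its group for Nrl and Nr2e3 in all 3 day 0 groups. Sox15, the gene named in the study's title, was low throughout. It was at 0.252, 0.566 and 0.419 CPM in cone primed and 0.678, 0.302 and 0.0898 CPM in rod primed cells (0.35 ± 0.82, edgeR adjusted p = 0.87). These are 13 counts in the cone primed and 9 in the rod primed group, too few to show a small difference.

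None of 18 tested rod phototransduction and outer segment genes was called by edgeR, 2 had an unadjusted p under 0.05, and 15 had a log2 fold change below 0 (median -1.42); DESeq2, limma with voom weights and edgeR on the 9 day 0 libraries called 1 each. The list's summed level was 547 to 1479 CPM in rod primed, 281 to 728 CPM in cone primed and 336 to 670 CPM in untreated libraries. Of 12 cone phototransduction genes, Cnga3 was called, 8.33% against 7.27% of all genes (median 0.33), and the fits of the 6 and of the 9 libraries called 3 and voom 5, all higher in cone primed cells. Cnga3 was at 6.8, 2.1 and 4.19 CPM in cone primed, 5.37, 3.27 and 3.8 CPM in untreated and 0.814, 0.605 and 0.539 CPM in rod primed cells, without overlap (2.73 ± 0.69, edgeR adjusted p = 0.0145). Its call ended without cone primed replicate 1 or rod primed replicate 2 or 3 (edgeR adjusted p 0.0602 to 0.0916). Opn1sw, the short-wavelength cone opsin, was at 5.03, 0.566 and 1.89 CPM in cone primed and 10.4, 2.62 and 1.17 CPM in rod primed cells (-0.94, edgeR adjusted p = 0.626).

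Taurine was given to the rod primed cells. Of 9 tested genes of its transport, synthesis and receptors 1 was called, 11.1% against 7.27% of all genes. Slc6a6, the taurine transporter, was at 122, 116 and 160 CPM in rod primed, 201, 217 and 273 CPM in cone primed and 191, 329 and 260 CPM in untreated cells. All rod primed libraries were below all others (log2 fold change 0.79 ± 0.22, edgeR adjusted p = 0.0256). The call was lost without cone primed replicate 3 or rod primed replicate 1 or 2 (edgeR adjusted p 0.0926 to 0.167). The synthesis genes Csad and Cdo1 and the glycine receptor gene Glra2, a receptor that taurine can open, were not called (0.02, 0.95 and 1.93).

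Markers of other cell types were low in both groups. Microglial Aif1 and P2ry12 were at 0.271 CPM or below in all 6 libraries. The only call among 14 tested microglial and macrophage genes was Tnfrsf1b, described above (7.14% against 7.27% of all genes). Lens crystallins gave no call of 8 lens genes tested by edgeR, 1 of which had an unadjusted p under 0.05 and 1 of which DESeq2 called, and no red blood cell gene had enough counts to be tested. Endothelial Cdh5 and Tie1 had at most 0.0808 CPM in any library, and none of 6 endothelial genes tested was called by edgeR, 1 having an unadjusted p under 0.05 and 1 being called by DESeq2; Kdr, at 291 to 365 CPM, is also known in retinal progenitors. Pax2, of the optic stalk and optic nerve head, was at 5.02, 6.25 and 11.6 CPM in rod primed and 0.126, 1.13 and 0.419 CPM in cone primed cells (log2 fold change -3.61 ± 0.58, edgeR adjusted p = 0.000162), and Slc14a1, a urea transporter of astrocytes, was higher there too (-1.87), while the astrocyte marker Gfap stayed at 0.252 CPM or below. Foxc1, of periocular mesenchyme, was higher in rod primed cells, at 9.09, 5.34 and 14.3 CPM against 1.13, 1.21 and 0.629 CPM (-3.25 ± 0.52, edgeR adjusted p = 0.000146), with the collagen genes Col1a1 and Col3a1 not called (2.17 and 2.72). In the pigment epithelium and ciliary margin list Mitf was higher in cone primed (1.42) and Gja1 in rod primed cells (-3.05), the latter lost without cone primed replicate 1 or 3 or rod primed replicate 3 (edgeR adjusted p 0.0652 to 0.321). Of 11 bipolar cell genes 1 was called, Gpr179 (-3.08, edgeR adjusted p = 0.0021), 9.09% against 7.27% of all genes.

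The day 0 differences were then followed in the separate libraries of the induction cultures, cone against rod on the same day. At day 5, 446 of the 866 genes higher in rod primed cells (51.5%) were again called higher in the rod culture, where 5.8% of all genes were and 9.28% were called either way. At days 12, 21 and 35 the counts were 180, 154 and 161, or 20.8%, 17.8% and 18.6%, against 4.12%, 3.14% and 4.51% of all genes. Of the 454 genes higher in cone primed cells, 90, 75, 115 and 123 were called higher in the cone culture at days 5, 12, 21 and 35 (19.8%, 16.5%, 25.3% and 27.1%, against 3.48%, 5.98%, 5.86% and 7.77% of all genes). Calls in the opposite direction numbered 7 to 54 for the first set and 3 to 17 for the second. Rarb, Cyp26a1, Cyp26b1, Dhrs3, Wfdc1, Hkdc1, Slc13a5 and Tnfrsf1b were called higher in the rod culture on all 4 days. Cyp26a1 had log2 fold changes of -4.72, -5.57, -4.78 and -5.74 there, while those of Rarb were -4.04, -2.48, -2.35 and -2.01. Csn3 turned around, from -7.02 at day 0 to 3.19 at day 21 and 3.73 at day 35, both called. On the cone side Edaradd was called on every day, at 2.34, 4.00, 4.84 and 6.40, and Calb2 on no later day (1.29, -0.04, 1.31 and 2.17). The cyclin gene Ccnd1 was at -0.71 (called) at day 5 and at 0.84 (called, higher in the cone culture) at day 12. The day 0 difference itself differed from the day 5 difference for 102 genes (0.562% of genes tested; edgeR), with a lower value at day 0 for 78 (0.43%), and 69 of the 102 were also called at day 0.

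**Figure D5:**
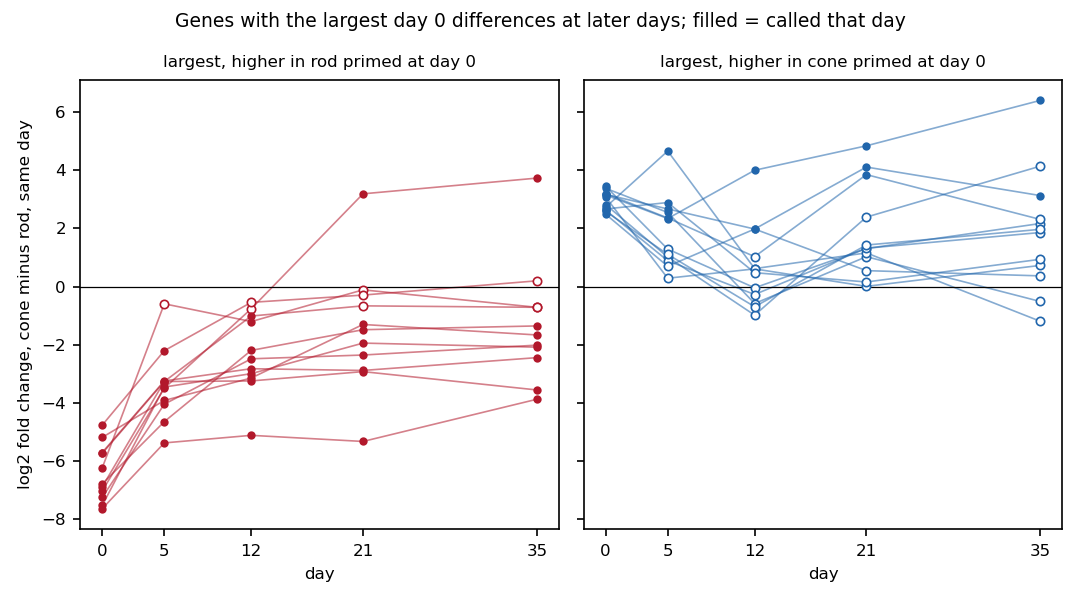
Each line is 1 gene, with its log2 fold change, cone minus rod of the same day, against the day for 11 of the largest differences higher in rod primed cells (left) and the 12 largest in cone primed cells (right); filled points were called that day. Most lines on the left stay below 0, from Cyp26b1 at -7.63 on day 0 to -3.87 on day 35, and Csn3 and Oasl2 (0.20 at day 35) cross it; on the right Edaradd reaches 6.40 at day 35.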

How the data were processed

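The counts deposited by the authors hold unnormalised reads per gene for 47729 genes and 5 summary lines for unassigned reads, which were left out of every test. Per the file headers, the authors' other tables hold TPM, FPKM and coverage (a signal per base) for each gene. TPM served as an alternative, FPKM and coverage were not used, and no level was compared between genes. The submitters' processing notes list HISAT2, StringTie, HTSeq and GRCm38 without roles, order or versions, and the strand setting is not given in the sources used here. Of 47224 gene identifiers found in GENCODE release M21 on GRCm38, 40735 had the same position.

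The 33 libraries were fitted as 11 groups of 3 with edgeR 4.0.16 (limma 3.58.1, R 4.3.3): filterByExpr at a minimum count of 10, which kept 18150 of 32488 genes with any count, TMM scaling, quasi-likelihood F tests and Benjamini-Hochberg adjustment over all genes, called at an adjusted p under 0.05. The common biological coefficient of variation was 0.213 over the 33 libraries. It was 0.147 in a fit of the 6 libraries compared, 0.159 within the cone primed and 0.139 within the rod primed group. Priming was compared as cone primed minus rod primed, each against untreated, cone minus rod at days 5, 12, 21 and 35, and the day 0 against the day 5 difference. A floor of 3 counts over the group, or a 95% Poisson-based counting interval of the ratio for 1 to 3 counts, was used where a group was near 0; both cover counting error only, since reads carried no molecular identifiers. Each SE is the absolute log2 fold change divided by the square root of the F statistic, so it is approximate, above all where a group is near 0. Nearness to untreated used log2(CPM + 0.5). The labels name no batch. Tables and figures used Python 3.11.15 with pandas 2.3.3, numpy 2.4.6, scipy 1.17.1 and matplotlib 3.10.9.

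The members, the 37 gene lists and the tests were chosen with earlier results of these data known. Lists are described by counts and medians and had no test. Named genes include the 12 largest differences each way among called genes whose libraries did not overlap (Gm-numbered and Rik symbols skipped). The log2 of their mean CPM over the 6 libraries was 1 or more, so a gene high in 1 group alone could pass. Called members and defining members of each list and the 6 smallest adjusted p-values are also named. Otx2, Crx, Nrl, Nr2e3, Thrb, Opn1sw, Sox15, Pax6 and Mki67 were always named. Some genes that these rules pick are not reported here. Alternatives were RLE factors, TMM among the 9 day 0 libraries (added after seeing the data) or without mitochondrial and ribosomal RNA genes, other filters, fits of 6 or 9 libraries, a replicate block, DESeq2 1.42.0, limma with voom weights, limma on log2(TPM + 1), and leaving out each library. On simulated counts of 17973 genes with 200 changed between cone primed and rod primed, 66% of 2-fold and 75% of 4-fold changes were called. Of the calls among changed genes 100% had the right direction, and there were 8 false calls. Those counts were drawn as independent libraries from the means and spread of the fit of 33 libraries. They therefore check the procedure under its own model and do not measure false calls in the real data.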

Additional observations from a re-analysis of the deposited data

Results flagged for a closer look

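For 12 of the genes named, the day 0 difference between cone primed and rod primed cells differed from the day 5 difference between the cone and rod cultures, by a test of the difference itself in edgeR (102 of 18150 genes, 0.562%; 1847 at an unadjusted p under 0.05). In 8 of them the rod side had the higher value at both days, by less at day 5. Of these, Pdlim3 was not called at day 5 (edgeR adjusted p = 0.302). The log2 difference (day 0 minus day 5) was -5.64 for Pdlim3 (edgeR adjusted p = 3.45e-05; -6.23 at day 0, -0.59 at day 5), -4.07 for Dhrs3 (0.0024; -7.52, -3.45) and -3.20 for Rarb (0.000201; -7.24, -4.04). It was -2.47 for Atoh8 (edgeR adjusted p = 0.00514), -2.42 for Ccnd2 (0.0169), -1.59 for Prelp (0.00864), -1.49 for Pmepa1 (0.000759) and -1.41 for Ccnd1 (0.0437). Slc14a1 (-2.08, edgeR adjusted p = 0.0299) and Tob1 (-0.75, 0.0263) went from -1.87 and -0.38 at day 0 to 0.21 and 0.37 at day 5. Gbx2 (3.48, edgeR adjusted p = 0.0471) went from 2.34 to -1.13, and Podn (2.78, 0.0369) from 3.08 to 0.29. Leaving out 1 library gave 47 to 87 calls of this kind: 67 and 47 on dropping cone primed replicates 2 and 3, and 55 and 51 on dropping rod primed replicates 1 and 2.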

How the results depend on the processing

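Of 124 called genes named, 62 kept their call without any 1 of the 6 libraries and 4 lost it in every such fit. None of the 124 changed direction in those fits. Gm14133 and Syndig1, picked after their values had been seen, are not among the 124. Leaving out 1 library gave 573 to 1227 calls for cone primed against rod primed, 829 to 1365 for rod primed against untreated (829 without rod primed replicate 3), 47 to 87 for the day 0 against day 5 difference and 0 for cone primed against untreated. For cone primed against rod primed, a fit of the 6 libraries gave 2084 calls, of the 9 day 0 libraries 2304 and voom weights 3200. DESeq2 gave 1721 and RLE factors 1323. A limma fit of log2(TPM + 1) gave 0, with 787 at an unadjusted p under 0.05. These TPM had a rank correlation with CPM of 0.351 to 0.404 within a day 0 library, so that fit cannot show whether calls from counts hold. Rod primed against untreated gave 2963 calls in the 9 libraries and 2862 with a replicate block there. The higher share in cone primed was 34.4% as reported, 51.8% in 6 libraries and 54.2% in 9. A replicate block in the 6 libraries gave 1385 calls, 875 of them shared. The labels give only numbers, and the deviations of same-numbered libraries correlated at 0.209, -0.157 and -0.144, so the numbers were not taken as pairs. Not every library correlated best with its own number. Cone primed replicate 2 correlated at 0.307 with rod primed replicate 3, and cone primed replicate 3 at 0.2 with rod primed replicate 2. Whether libraries were paired under other numbers was not tested. On log2(TPM + 1) the sign turned for Bcl2l11 (0.13), Ccnd1 (0.08), Cdkn2c (0.22), Cdt1 (0.10), Gbx2 (-0.25), Hic1 (0.12), Lef1 (-0.20), Ncoa3 (0.05), Nr2e3 (0.16), Pcna (0.08), Pola1 (0.10), Rarg (0.05), Rbl1 (0.11), Smad3 (0.11), Sox15 (-0.75), Stra6 (0.30), Syndig1l (-0.08), Tcf7 (0.20), Thrb (0.12) and Tob1 (0.06). The cause was not tested. Among genes that were not called, the sign turned on leaving out 1 library for Crx (-0.14 to 0.25), Otx2 (-0.47 to 0.15), Nr2e3 (-2.76 to 0.15), Opn1sw (-1.96 to 0.35) and Sox15 (-0.16 to 1.10). Sox15 rested on few counts, 13 in the cone primed and 9 in the rod primed group, where a small difference could be missed.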

Other observations

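Glucose metabolism was not described above. Of 19 tested genes of glycolysis and the response to low oxygen, 3 were higher in rod primed and 1 in cone primed cells (median log2 fold change -0.12). The share called was 21.1%, against 7.27% of all genes. Eno1, a glycolytic enzyme, was at 839, 657 and 888 CPM in rod primed, 229, 224 and 185 CPM in cone primed and 193, 184 and 172 CPM in untreated cells (log2 fold change -1.90 ± 0.19, edgeR adjusted p = 1.17e-07). Slc2a1, the main glucose transporter of retina, was at 341, 353 and 400 CPM against 109, 138 and 85.8 CPM in cone primed cells (-1.72 ± 0.20, edgeR adjusted p = 2.08e-06). Hk1, a hexokinase, was also higher in rod primed cells (-0.85, edgeR adjusted p = 0.00287). All 3 kept their calls without any 1 library, and no library overlapped between the primed groups. Slc2a3, the neuronal glucose transporter, was higher in cone primed cells (1.43, edgeR adjusted p = 0.0212), a call lost without cone primed replicate 1 or 3 or rod primed replicate 1 or 3 (0.0584 to 0.128). Gapdh, Pkm and Ldha were not called (0.23, 0.13 and -0.25), so the list did not move together.

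Few genes of cell death and general function were called. Of 25 tested genes of apoptosis and cell stress 1 was called (4% against 7.27% of all genes, median -0.05). It was Bcl2l11, a promoter of apoptosis (-0.76, edgeR adjusted p = 0.00225). Of 80 ribosomal protein genes 79 had a log2 fold change below 0 (median -0.26). By edgeR 1 was called (1.25%), the related Rpl7l1 (-0.36), and voom called 17. Rpl7l1 lost its call without cone primed replicate 1 or 3 or rod primed replicate 3 (edgeR adjusted p 0.0942 to 0.267). Of 24 mitochondrial genome genes 0 were called by edgeR, with 0 at an unadjusted p under 0.05 and 0 called by DESeq2 or voom.

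The authors' TPM followed the counts poorly. Across 10793 genes with a mean above 5 CPM, the rank correlation of TPM with CPM within a day 0 library was 0.351 to 0.404. Rarb had a TPM of 2.84 to 7.08 in all 9 day 0 libraries, where its CPM was 93.6 to 105 in rod primed and 0.204 to 0.943 in the other libraries. In the mitochondrial genome mt-Nd6, which lies on the opposite strand to the other protein genes, had a TPM of 3919 to 12368 with a CPM of 71.6 to 122, and mt-Nd5 a TPM of 384 to 1035 with a CPM of 1269 to 2410. The cause was not tested.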
